A study of Mus musculus with 3 samples.

Results

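The genes described here are 38 genes of the cell division cycle, followed across the leukocyte classes of the mouse stomach wall. They were taken from a fixed list of symbols, which was chosen with earlier results of these data known. All 38 were present among the 31053 genes counted. The list holds 14 genes of S phase, 23 genes of G2 and mitosis (G2/M) and Stmn1, which was counted among the members but in neither sum. The data were single-cell RNA counts. The cells had been released from gastric muscle of female C57bl/6 mice with collagenase and sorted for CD45, a surface protein of leukocytes. All 3 libraries belonged to 1 group, labelled NonDiabetic, with no treatment, allele or age in the labels, so the comparisons were made between cell classes and not between groups of mice. Whether each library stands for its own animal is not given, so a p-value here reflects library-to-library spread that may be technical. The study asks what the macrophages of the gastric muscle are made up of and where they may come from, and the cell cycle genes bear on which classes held dividing cells.

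A cell copies its DNA in S phase and divides in mitosis. S-phase genes include the Mcm2 to Mcm7 subunits of the helicase that opens the double strand, Pcna, the sliding clamp of DNA polymerase, its partner Pclaf, and the nucleotide synthesis enzymes Tyms, Tk1, Rrm1 and Rrm2. G2/M genes include the cyclins Ccna2, Ccnb1 and Ccnb2 and their kinase Cdk1, the kinases Aurka, Aurkb, Plk1, Bub1 and Bub1b, the motors Kif11, Kif20a and Cenpe, and Ube2c and Cdc20, which serve the complex that marks cyclins for destruction. Mki67 coats mitotic chromosomes and is widely used as a marker of dividing cells. Many tissue macrophages can renew themselves locally by division, whereas dendritic cells are short-lived and are replaced from precursors that can still divide in the tissue.

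Cells were kept with at least 1000 unique molecular identifiers (UMIs, each marking a captured RNA molecule) and at most 15% mitochondrial UMIs. This left 522, 1692 and 1216 cells in libraries 1, 2 and 3, with medians of 9182.5, 5699.5 and 7501.5 UMIs. Each cell was placed in a class by marker genes, none of them a cell cycle member. The main classes were macrophages (199, 964 and 723 cells), group 2 innate lymphoid cells (ILC2, tissue lymphocytes that make type 2 cytokines; 112, 182 and 149 cells), type 2 conventional dendritic cells (cDC2; 82, 128 and 120 cells), type 1 conventional dendritic cells (cDC1; 7, 30 and 33 cells) and monocytes (11, 23 and 13 cells). C1qa was found in 95% of macrophages, and their leading genes were Pf4, Ms4a7 and Apoe. Hp, Chil3 and Ly6c2 led the monocytes and were found in 34.0%, 40.4% and 31.9% of them. C1qa, Apoe, Hp, Chil3 and Ly6c2 were themselves markers used to make the classes, so finding them there is no separate support. Pf4 and Ms4a7 were not among those markers. Library 2 stood apart by depth: 587 of its 1692 kept cells, and 365 of its 964 macrophages, had under 2000 UMIs. The kept cells shared 0 barcodes between libraries 1 and 2, 1 between libraries 1 and 3, and 3 between libraries 2 and 3.

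Stretches of DNA just before the start of 5 members are shown because these members carry the contrasts described here. Ube2c differed most between macrophages and cDC2, Ccnb2 and Cdc20 were also lower in macrophages, Kif11 was almost always found together with other members, and Mcm6 was the S-phase member that was higher in cDC1. Each stretch is 120 bases, read 5′ to 3′ on the gene's strand from RefSeq (GRCm38.p6), and ends before the gene start in both RefSeq and GENCODE. Capitals mark matches, on either strand, to CCAAT, to the cell cycle homology region (CHR; TTTGAA or TTCGAA) or to E2F-like letters, which were TTCCCGC or else TTGGCGC or else TTCGCGC or else TTGCCGC.
Ube2c, chr2:164769778-164769897, plus strand: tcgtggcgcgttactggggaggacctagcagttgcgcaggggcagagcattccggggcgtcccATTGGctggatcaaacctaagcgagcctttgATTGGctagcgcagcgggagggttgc
Ccnb2, chr9:70421555-70421674, minus strand: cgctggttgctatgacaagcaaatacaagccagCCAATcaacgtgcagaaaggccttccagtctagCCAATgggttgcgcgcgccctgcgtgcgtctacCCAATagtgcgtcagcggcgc
Cdc20, chr4:118437353-118437472, minus strand: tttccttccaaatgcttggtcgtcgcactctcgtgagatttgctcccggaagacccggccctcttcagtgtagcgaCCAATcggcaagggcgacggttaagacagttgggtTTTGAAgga
Kif11, chr19:37376262-37376381, plus strand: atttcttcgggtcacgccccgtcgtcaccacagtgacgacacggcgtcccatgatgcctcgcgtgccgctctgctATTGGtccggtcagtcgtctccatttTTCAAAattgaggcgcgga
Mcm6, chr1:128359706-128359825, minus strand: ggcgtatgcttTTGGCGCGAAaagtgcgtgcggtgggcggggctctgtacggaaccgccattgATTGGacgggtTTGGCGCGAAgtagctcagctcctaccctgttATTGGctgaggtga

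The Ccnb2 stretch held CCAAT 3 times on the gene's strand, and the Ube2c stretch held it on the opposite strand (as ATTGG) at 2 places. Cdc20 and Kif11 each held a CHR match close to the start, beginning 18 bases before the RefSeq start in Cdc20 and 19 bases before it in Kif11. Ube2c and Ccnb2 had a CHR match outside the stretch printed, 29 bases before the RefSeq start on the opposite strand in Ube2c and 167 bases before it in Ccnb2. In Mcm6 each of the 2 runs of 10 capitals is an overlap of TTGGCGC with TTCGCGC on the opposite strand. Of the 38 members, 31 had an entry in the promoter table. Over the 250 bases before the RefSeq start, CCAAT was present in 27 of 31 members (87.1%) and in 34.5% of all 27025 genes in the table. CHR letters were present in 8 of 19 G2/M members (42.1%), 2 of 12 S members (16.7%) and 17.4% of all genes. E2F-like letters were present in 6 of 12 S members (50.0%), 4 of 19 G2/M members (21.1%) and 7.97% of all genes. These are matches of letters, given with no test, and they do not show that a factor is bound.

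The share of cells holding UMIs of several members was compared at equal depth, since a deeper cell shows more genes. Every cell was thinned at random to 1000 UMIs, and a cell counted when it then held UMIs of at least 3 of the 38 members. In cDC2 this share was 13.4% in library 1 (11 of 82 cells), 10.9% in library 2 (14 of 128) and 5.83% in library 3 (7 of 120), a mean of 10.1% ± 3.87 (SD, n = 3). In macrophages it was 3.52% (7 of 199), 4.25% (41 of 964) and 4.84% (35 of 723), a mean of 4.20% ± 0.663 (SD, n = 3). The cDC2 share was above the macrophage share in all 3 libraries, with exact Clopper-Pearson 95% intervals that did not overlap in library 2 (6.11% to 17.7% against 3.07% to 5.73%), met narrowly in library 1 (6.89% to 22.7% against 1.43% to 7.11%) and overlapped widely in library 3 (2.38% to 11.6% against 3.39% to 6.67%). Intervals cover counting error only, and no test was made on the shares of 3 libraries.

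In ILC2 the share was 2.68% (3 of 112 cells), 1.10% (2 of 182) and 2.01% (3 of 149), a mean of 1.93% ± 0.793 (SD, n = 3). It was below the macrophage share in all 3 libraries, but the exact intervals of the 2 classes overlapped in each of them. The cDC1 share was 14.3%, 13.3% and 12.1%, from 1 of 7, 4 of 30 and 4 of 33 cells. With a different random thinning the mean cDC1 share was 6.36% in place of 13.2%, so the cDC1 and cDC2 shares could not be put in order at this depth.

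Monocytes had 1 such cell of 47, which was in library 2. When a cell needed at least 4 markers of its class, 25 monocytes were left, with a share of 0%. T and NK cells had 2 of 42, both among the 9 cells of library 3. No such cell was found among 47 mast cells, 62 stromal cells or 14 migratory dendritic cells, which allows shares of up to 6.38%, 4.84% and 21.4%. The stromal cells were deep, with a median of 13978 UMIs, and the mast cells shallow, with 2781. At 2000 UMIs such cells were found in these classes too: 4 of 29 mast cells (13.8%, exact 95% interval 3.89% to 31.7%), 5 of 40 T and NK cells (12.5%, 4.19% to 26.8%) and 2 of 60 stromal cells (3.33%, 0.406% to 11.5%), beside 43 of 304 cDC2 (14.1%, 10.4% to 18.6%). The low counts of the small classes at 1000 UMIs thus do not place them below cDC2. The plot of the share by class shows these small classes with wide intervals.

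**Figure D1:**
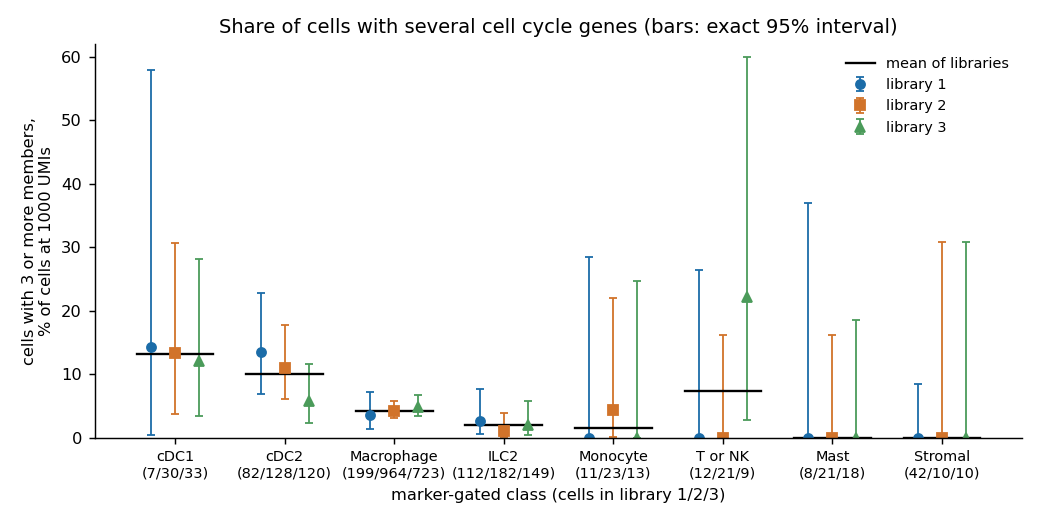
Share of cells with UMIs of 3 or more of the 38 members (vertical axis, percent of cells thinned to 1000 UMIs) in 8 classes; points are libraries with exact 95% intervals, black lines are means, and the cell numbers of libraries 1/2/3 stand under each class. The cDC2 points lie at 5.83% to 13.4%, above the macrophage points at 3.52% to 4.84% and the ILC2 points at 1.10% to 2.68%.

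The shares differed with depth, and the order of the 3 large classes was the same at each depth tried. Without thinning, 54.3% ± 9.29 of cDC2, 29.5% ± 3.75 of macrophages and 17.5% ± 11.0 of ILC2 (SD, n = 3) held at least 3 members, with median depths of 14854.5, 6944 and 6896 UMIs. Thinned to 2000 UMIs, the means were 14.4%, 9.05% and 3.14%. When at least 5 members were required at 1000 UMIs, they were 7.43%, 2.39% and 0.82%. At least 1 member was found in 38.3% ± 4.42 of cDC2, 37.4% ± 5.53 of macrophages, and also in 35.5% ± 15.6 of mast cells (SD, n = 3), which had no cell holding 3 at 1000 UMIs.

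The summed S and G2/M UMIs separated the classes in different ways. The sums were taken without thinning, so deep cells weigh more in them. S-phase UMIs per 10000 UMIs were 4.75, 3.88 and 4.04 in macrophages of libraries 1, 2 and 3, 5.59, 2.99 and 3.14 in cDC2, and 4.81, 1.41 and 3.07 in ILC2. The 3 classes overlapped in S-phase UMIs. G2/M UMIs per 10000 were 9.70, 7.93 and 9.72 in cDC2, a mean of 9.12 ± 1.03 (SD, n = 3), and 3.90, 3.72 and 4.38 in macrophages, a mean of 4.00 ± 0.343. The lowest cDC2 value was above the highest macrophage value. Since these are sums over a class, fewer dividing cells and less RNA of these genes per cell cannot be told apart in them.

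In cDC1, S-phase UMIs were 10.9, 4.86 and 4.75 per 10000 and G2/M UMIs were 3.53, 4.44 and 5.32 per 10000. The S value of library 1 came from 7 cells, 1 of which held 93.1% of the S-phase UMIs. Without thinning, the G2/M values of cDC1 were all below those of cDC2. With every cell thinned to equal depth, they were 1.43, 4.67 and 5.45 per 10000 in cDC1 of libraries 1, 2 and 3. The thinned cDC2 values were 8.41, 5.08 and 7.58, so cDC1 was lower within each library but the ranges overlapped. Mast cells had 70 S-phase UMIs and 10 G2/M UMIs in all, and stromal cells had 148 and 14, so in these classes the S-phase genes were detected with hardly any G2/M genes.

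**Figure D2:**
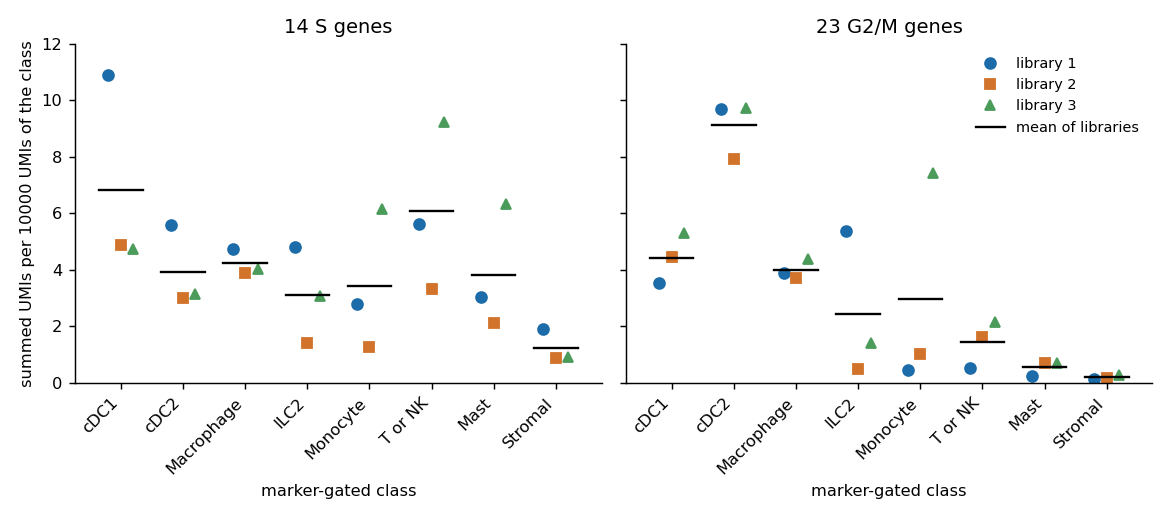
Summed UMIs of the 14 S genes (left) and the 23 G2/M genes (right) per 10000 UMIs of the class (vertical axis), by class and library. Counts were not thinned, and black lines are means over libraries. On the right the 3 cDC2 points (7.93 to 9.72) lie above those of every other class drawn, and the spread of ILC2 and monocytes is wide.

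The sums rested on few cells. In ILC2 the G2/M value was 5.37 per 10000 in library 1, 0.493 in library 2 and 1.40 in library 3, and 3 cells of library 1 held 524 of its 595 G2/M UMIs (88.1%). In monocytes it was 0.443, 1.01 and 7.45 per 10000, and 1 cell of library 3 held 91 of its 103 G2/M UMIs. No monocyte of library 3 held 3 members after thinning. In cDC2 the 3 cells with most G2/M UMIs held 45.8%, 40.0% and 54.1% of them in libraries 1, 2 and 3. In macrophages the corresponding values were 59.7%, 26% and 21.5%.

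Over all classes 155 of 3430 cells held at least 3 members at 1000 UMIs: 83 macrophages, 32 cDC2, 9 cDC1, 8 ILC2, 1 monocyte, 2 T or NK cells, 1 B or plasma cell, 1 of 6 glial cells and 18 cells in no class. Of the 155, 66 held at least 2 G2/M but fewer than 2 S members, 45 held at least 2 S but fewer than 2 G2/M members, 37 held at least 2 of each, and 7 held at least 2 of neither. Among the 32 cDC2, 21 were of the G2/M kind and 4 of the S kind. Among the 83 macrophages, 29 were of the G2/M kind and 27 of the S kind. The 155 cells were deep, with a median of 13408 UMIs against 6811 in the rest, and 2 of them were among the highest doublet scores. Whether a larger RNA content of these cells plays a part in their choice was not tested.

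The members differed in how often they were found with others. Of the cells with a Kif11 UMI at 1000 UMIs, 22 of 23 (95.7%) also held at least 2 other members. Kif11 is the motor that separates the poles of the mitotic spindle. For Ube2c this was 33 of 44 cells (75.0%), for Pclaf 40 of 54 (74.1%), for Top2a, the topoisomerase that untangles chromosomes, 74 of 115 (64.3%), for Birc5, a subunit of the chromosomal passenger complex, 26 of 41 (63.4%), and for Mki67 66 of 128 (51.6%). Pcna was at the other end, with 37 of 290 cells (12.8%), and 70.7% of its cells held no other member.

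The helicase subunits Mcm2 (20.9%), Mcm3 (23.6%) and Mcm6 (31.1%), the reductase subunit Rrm1 (29.7%) and Cenpa, the centromeric histone (18.0%), were also mostly found with fewer than 2 others. Mcm5 (46.2%), Stmn1, which destabilises microtubules (38.9%), and Tyms (38.1%) lay between. Cenpa was the G2/M member with the lowest share among those found in at least 20 cells. In macrophages the Pcna share was 14%, in cDC2 12% and in ILC2 14.3%, from 179, 25 and 28 cells, so it was low in each of these classes. The Cenpa share was 16% in macrophages (16 of 100 cells) and 42.9% in cDC2 (9 of 21 cells).

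**Figure D3:**
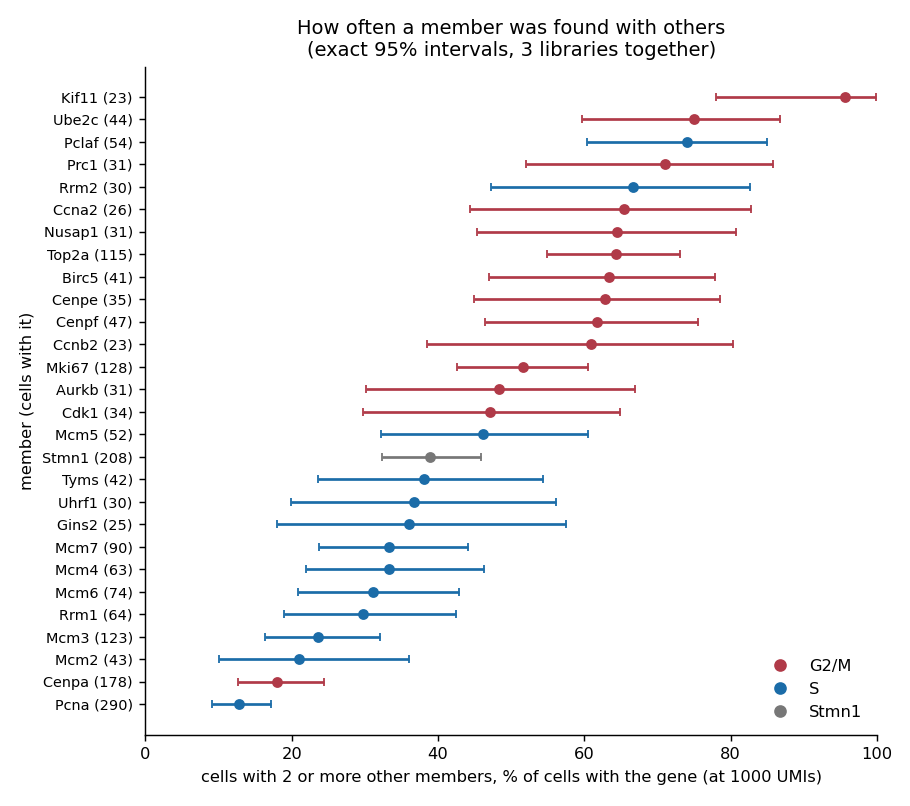
For each member found in at least 20 cells (cell number in brackets), the percentage of those cells that held UMIs of 2 or more other members at 1000 UMIs (horizontal axis), with exact 95% intervals over the 3 libraries together. Of the G2/M members drawn, only Cenpa (18.0%) lies below 47.1%, whereas Pcna lies at 12.8% and the helicase subunits lie between 20.9% and 46.2%.

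The same split was seen in the untouched counts, and it is given as a description because the 155 cells were chosen by these genes. The 155 cells held 8.17% of all UMIs of the kept cells. They held 93.9% of the UMIs of Kif11, 91.3% of Ccna2, 88.5% of Pclaf, 87.0% of Top2a and 68.6% of Mki67. They held 25.3% of the UMIs of Pcna, 25.7% of Cenpa, 30.9% of Mcm2 and 33.4% of Mcm6.

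Pairs of members differed in how often they shared a cell. Top2a was found in 41 of 128 cells with Mki67 (32.0%) and in 2.24% of the cells without it. By library, it was found in 46.7%, 20.9% and 43.5% of cells with Mki67, against 1.97%, 2.58% and 1.88% of those without. Cenpa was found in 5.17% of cells with Pcna and in 5.19% of those without. Other pairs with Pcna showed small differences in the direction of sharing: Mcm3 was found in 5.86% of cells with Pcna and 3.38% of those without, Stmn1 in 9.31% against 5.76%, and Pcna itself in 12.5% of cells with Mki67 against 8.30%. In library 1 Mcm3 and Stmn1 were each found in 1.79% of cells with Pcna, below the 3.65% and 3.22% of those without. Among S members, Mcm6 was found in 11.5% of cells with Mcm5 against 2.01%, from 6 cells with both, and Mcm5 in 7.14% of cells with Tyms against 1.45%, from 3 cells.

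In the cells outside the 155, S-phase UMIs per 10000 were 2.81 ± 0.693 in macrophages, 2.32 ± 0.424 in cDC2 and 1.85 ± 0.470 in ILC2 (SD, n = 3). G2/M UMIs were 1.20 ± 0.292, 1.99 ± 0.612 and 0.547 ± 0.148 per 10000. The 155 cells held 71.3% to 86.9% of the G2/M UMIs of cDC2 and 63.7% to 79.0% of those of macrophages, by library. In ILC2 they held 88.1%, 1.75% and 69.9% in libraries 1, 2 and 3. These shares are a description too, since the cells were chosen by these genes.

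To compare single genes, counts were summed per class and library and tested with edgeR's quasi-likelihood test with the library as a block. Values are given as CPM, each gene's UMIs scaled to the same total for every class and library, a fold change is on the log2 scale with its SE, and a gene was called at a Benjamini-Hochberg adjusted p under 0.05 over all genes tested. None of the members was used to make the classes.

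By class, Mki67 was at 167 ± 38.2 CPM in cDC2, 70.0 ± 5.85 in macrophages, 73.4 ± 32.2 in cDC1, 72.1 ± 90.4 in monocytes and 46.3 ± 47.7 in ILC2 (SD, n = 3). The cDC2 range of 123 to 192 CPM lay above all values of macrophages, cDC1 and ILC2, but held the 173 CPM of the monocytes of library 3. At 1000 UMIs an Mki67 UMI was found in 9.74% ± 2.59 of cDC2, 3.08% ± 1.39 of macrophages and 0.97% ± 1.01 of ILC2 (SD, n = 3). Pcna had no such order: it was at 148 ± 99.6 CPM in cDC1, 144 ± 80.1 in monocytes, 120 ± 35.4 in macrophages, 83.9 ± 43.1 in cDC2 and 73.7 ± 36.7 in ILC2 (SD, n = 3), with ranges of mean ± SD that all overlapped. Mast cells held 30 Pcna and 33 Stmn1 UMIs but 2 Mki67 and 0 Top2a UMIs.

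Macrophages had lower levels of nearly all G2/M genes than cDC2. Of the 38 members, all tested, 23 were lower in macrophages and 0 were higher, against 19.6% of 9430 genes lower and 20% higher, 39.7% called in all. At an unadjusted p under 0.05, 2 members were higher and 26 lower, beside 4551 of 9430 genes in either direction. DESeq2 called 0 higher and 18 lower, beside 1282 and 1419 of 9430 genes. The lower members were 21 of the 23 G2/M genes, all but Plk1 and Aurka, and 2 of the 14 S genes. The median log2 fold change was -1.26 over the G2/M members and -0.12 over the S members, beside 0.03 over all genes. Leaving out a library gave 18 to 23 lower members of 36 to 38 tested, beside 14.3% to 17.4% of all genes. Without library 1 Pcna was called higher.

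Ube2c, an enzyme that attaches ubiquitin to cyclins, stood lowest. Its level was 15.7, 16.8 and 33.1 CPM in macrophages of libraries 1, 2 and 3 and 63.7, 107 and 103 CPM in cDC2, a log2 fold change of -2.32 ± 0.21 (edgeR adjusted p = 2.96e-05). Its groups did not overlap, and it was called under every alternative in which it was tested.

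Top2a was at 44.1, 62.7 and 69.3 CPM in macrophages and 150, 147 and 132 CPM in cDC2, a log2 fold change of -1.48 ± 0.16 (edgeR adjusted p = 7.47e-05). Mki67 was at 71.3, 75.2 and 63.7 CPM in macrophages and 185, 123 and 192 CPM in cDC2, a log2 fold change of -1.42 ± 0.19 (edgeR adjusted p = 0.00026). The values of the 2 classes did not overlap for either gene. Nusap1, which binds spindle microtubules, and Ccnb2, a mitotic cyclin, fell by 1.52 and 1.51 on the log2 scale in macrophages relative to cDC2.

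Among the other called G2/M members the largest differences were those of Hmmr, a spindle protein (-1.40), Ccnb1 (-1.39), Birc5 (-1.39), Cenpe, a kinetochore motor (-1.35), Ccna2 (-1.35), Aurkb, the kinase of the chromosomal passenger complex (-1.33) and Kif20a, a motor of cell cleavage (-1.26). The remaining 9 called G2/M members lay between -1.24 (Bub1) and -0.81 (Cdk1). Cenpa, which was mostly found without other members, was lower as well, at 50.1, 38.9 and 51.0 CPM in macrophages and 112, 99.0 and 73.0 CPM in cDC2 (log2 fold change -1.21 ± 0.18). Aurka had the smallest difference, with 7.25, 2.08 and 5.97 CPM in macrophages and 5.79, 3.75 and 6.89 CPM in cDC2 (log2 fold change -0.42 ± 0.43, edgeR adjusted p = 0.48), and its groups overlapped. Plk1 missed the threshold (log2 fold change -1.02 ± 0.41, edgeR adjusted p = 0.0743).

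Among the S members only Pclaf and Tyms, the enzyme that makes thymidylate, were lower in macrophages. Pclaf was at 15.1, 31.5 and 31.6 CPM in macrophages and 70.8, 48.2 and 30.3 CPM in cDC2 (log2 fold change -1.02 ± 0.31, edgeR adjusted p = 0.0247). Its groups overlapped, and it was not called without library 1 (adjusted p = 0.0852). Tyms was at 9.06, 10.4 and 13.3 CPM against 18.7, 15.0 and 20.7 CPM (log2 fold change -0.91 ± 0.23, edgeR adjusted p = 0.0124), and was not called without library 3 (adjusted p = 0.0585) or by DESeq2 (adjusted p = 0.0711). Mcm6 had the highest fold change of the members, with 57.4, 33.4 and 38.2 CPM in macrophages and 41.2, 18.2 and 25.5 CPM in cDC2 (log2 fold change 0.45 ± 0.18, edgeR adjusted p = 0.0718). Pcna was higher in macrophages within each library but was not called (log2 fold change 0.39 ± 0.15, edgeR adjusted p = 0.0574), Mcm5 was level (-0.06 ± 0.23), and Stmn1 was at -0.45 ± 0.20 (edgeR adjusted p = 0.101).

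**Figure D4:**
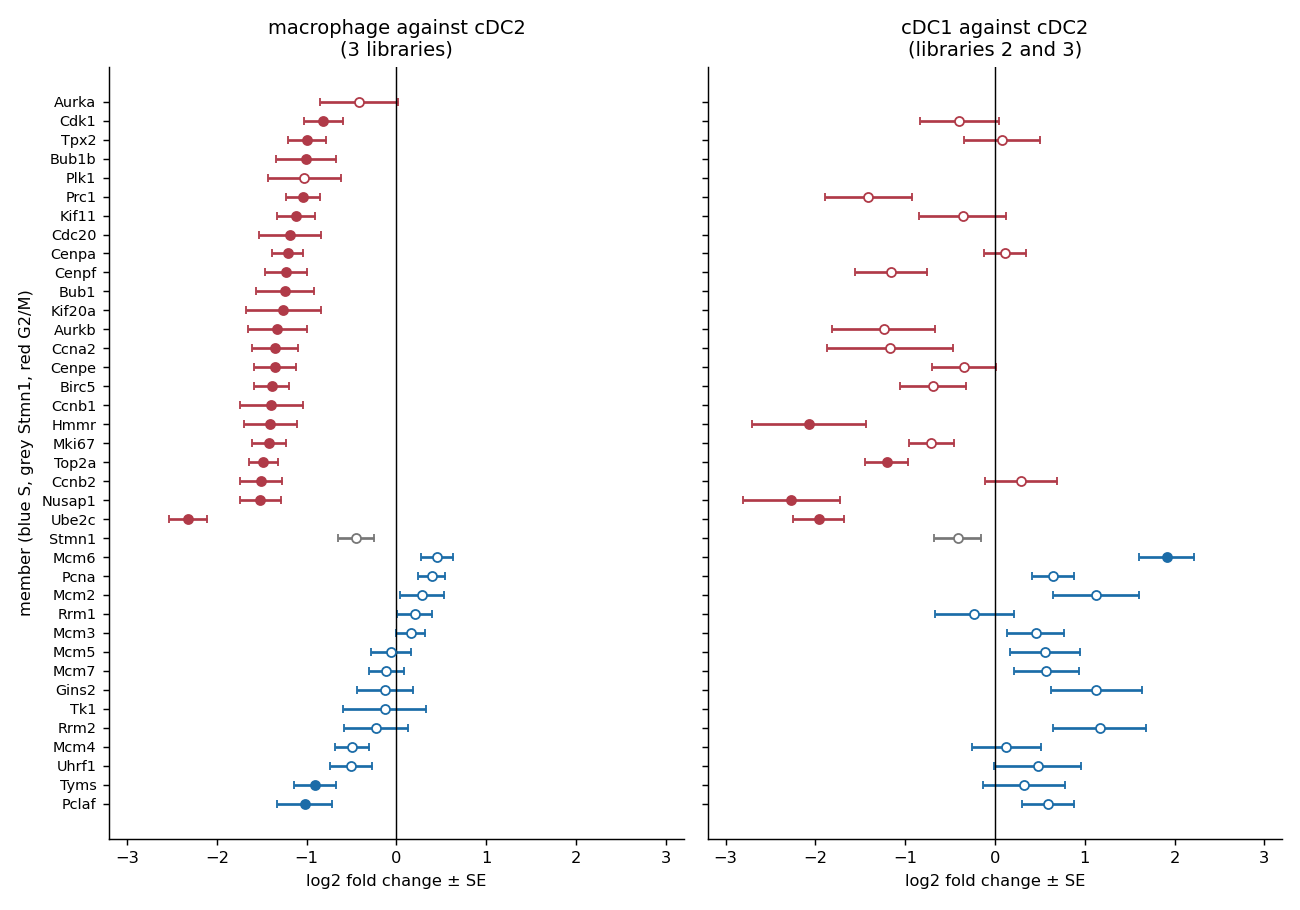
Log2 fold change with SE (horizontal axis) of each member tested, for macrophages against cDC2 (left, 3 libraries) and cDC1 against cDC2 (right, libraries 2 and 3); filled points were called at an adjusted p under 0.05 by edgeR. On the left the red G2/M members lie below 0 and the blue S members around 0; on the right Mcm6 lies at 1.91 and Nusap1 at -2.27. Both panels use the same cDC2 cells of libraries 2 and 3.

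Other genes of the cycle followed the same division. Of 20 chromatin and tubulin genes of dividing cells, 17 were lower in macrophages than in cDC2 and 0 were higher, with Cks1b (log2 fold change -1.92), H2afx (-1.70), H2afz (-1.38) and Knl1 (-1.27) lowest. Cks1b is a partner of cyclin-dependent kinases, H2afx and H2afz are histone variants, and Knl1 is a kinetochore scaffold. Of 18 genes of replication licensing and DNA synthesis, 17 were tested, 3 were higher in macrophages (Chaf1b 1.08, Cdt1 0.88 and Lig1 0.72) and 1 was lower (Dut -0.73). Of 9 transcription factors of the cycle tested, E2f2 (-1.86) and E2f4 (-0.58) were lower and 0 were higher.

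The genes that set entry into the cycle went in both directions. The D cyclins Ccnd2 (log2 fold change -1.39), Ccnd3 (-1.39) and Ccnd1 (-0.62) were lower in macrophages than in cDC2, while Cdk6, a kinase that D cyclins activate, and Myc were higher (1.32 and 0.98). Of 11 cycle inhibitors tested, 5 were lower, led by Cdkn2d (-1.63), Btg1 (-1.46), Cdkn1b (-1.17) and Btg2 (-0.98), and 2 were higher, Cdkn1c (3.06 ± 0.46) and Rbl2 (0.89). Cdkn1c, which encodes the kinase inhibitor p57, was at 10.9, 13.1 and 18.8 CPM in macrophages and 1.29, 2.14 and 0.689 CPM in cDC2, from 210 and 7 UMIs.

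cDC1 and cDC2 could be compared in libraries 2 and 3 only, since library 1 held 7 cDC1. Of 30 members that passed the filter on low counts, 4 were lower in cDC1, all of G2/M, and 1 was higher, of S phase, against 7.97% of 6961 genes lower and 6.13% higher, 14.1% called in all. The share of members called in either direction was thus near that of all genes. The 8 members that did not pass were Ccnb1, Cdc20, Kif20a, Aurka, Bub1, Bub1b, Plk1 and Tk1. Mcm6 was at 79.3 and 79.9 CPM in cDC1 of libraries 2 and 3 and 18.2 and 25.5 CPM in cDC2, a log2 fold change of 1.91 ± 0.31 (edgeR adjusted p = 0.000812). Its groups did not overlap, and it was called under every alternative in which it was tested. The other S members were not called, and 12 of 13 tested had positive fold changes, with a median of 0.57 beside 0.00 over all genes.

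Ube2c was at 23 and 29.97 CPM in cDC1 against 107 and 103 CPM in cDC2 (log2 fold change -1.96 ± 0.29, edgeR adjusted p = 0.000428). Top2a was at 54.3 and 64.9 CPM against 147 and 132 CPM (-1.21 ± 0.24, edgeR adjusted p = 0.00376). Nusap1 (-2.27 ± 0.54) and Hmmr (-2.07 ± 0.63), with 6 and 4 UMIs in cDC1, were also lower. DESeq2 called 1 of 30 members lower and 1 higher, beside 181 and 110 of 6961 genes. Mki67 was not called (log2 fold change -0.71 ± 0.25, edgeR adjusted p = 0.0863). Ccnb2 had the highest fold change of the G2/M members (0.29 ± 0.40, edgeR adjusted p = 0.72), with overlapping groups. Because macrophages and cDC1 were both set against the same cDC2 profiles, the 2 comparisons are not independent.

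Of 12 genes of replication licensing and DNA synthesis tested, 4 were higher in cDC1 than in cDC2 and 0 were lower: Hells, a chromatin remodeller (log2 fold change 1.40), Atad2 (1.32), Lig1, a DNA ligase (1.23), and Dut, which removes dUTP (1.22). Of 18 chromatin and tubulin genes tested, Cks2 was lower (-1.62). Of 7 G1 genes Ccnd2 was lower (-1.56), and of 10 inhibitors Cdkn1a, the kinase inhibitor p21, was lower (-2.24 ± 0.22). None of the 6 transcription factors tested was called by edgeR.

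Few members were called between macrophages and ILC2, though 29 of the 33 tested had positive fold changes, higher in macrophages. All 18 G2/M members tested were positive, with a median log2 fold change of 0.77, beside 0.02 over all genes. Of the 14 S members 10 were positive, with a median of 0.28. Of 33 members that passed the filter on low counts, 5 were higher and 1 was lower in macrophages, against 29% of 9363 genes higher and 25% lower, 54% called in all, so the share of members called was well below that of all genes. Ccnb1, Kif20a, Aurka, Bub1 and Plk1 did not pass the filter. The clearest was Mcm3, at 57.4, 42.9 and 48.1 CPM in macrophages and 27.1, 7.79 and 20.04 CPM in ILC2 (log2 fold change 1.32 ± 0.25, edgeR adjusted p = 0.0009). It was called under every alternative in which it was tested. Cenpe (1.57 ± 0.50), Mcm6 (0.87 ± 0.25), Cenpa (0.76 ± 0.23) and Pcna (0.57 ± 0.18) were also higher, but each lost its call under at least 2 alternatives. By DESeq2 the adjusted p was 0.0706 for Mcm6, 0.0937 for Cenpa and 0.1 for Pcna. With 1 library left out, edgeR's adjusted p was 0.103 for Cenpe and 0.147 for Cenpa without library 3, 0.0777 for Mcm6 without library 1 and 0.173 for Pcna without library 2. Without the library block it was 0.0813 for Cenpe and 0.138 for Pcna.

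Tyms was lower in macrophages than in ILC2, with 9.06, 10.4 and 13.3 CPM against 34.3, 7.79 and 23.2 CPM (log2 fold change -1.003 ± 0.36, edgeR adjusted p = 0.0326), and its groups overlapped. It was not called by DESeq2 (adjusted p = 0.124), without library 1 (0.304) or without library 3 (0.138). Mki67 was at 99.4 CPM in ILC2 of library 1 but at 6.92 and 32.7 CPM in libraries 2 and 3 (log2 fold change of macrophages over ILC2 0.70 ± 0.43, edgeR adjusted p = 0.188). Top2a was at 124, 11.3 and 19.0 CPM in ILC2 (0.41 ± 0.52, edgeR adjusted p = 0.532). Without library 1, whose 3 ILC2 with most G2/M UMIs are given above, 25 of 37 members tested were higher in macrophages and 0 were lower, against 27.9% of 10534 genes higher and 19.9% lower. At an unadjusted p under 0.05 that fit had 29 higher and 0 lower, beside 5675 of 10534 genes in either direction. The count of members higher in macrophages than in ILC2 thus differed between 5 with and 25 without library 1.

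Of 8 G1 genes tested, 3 were higher and 3 lower in macrophages than in ILC2, beside the 54% of all genes called in that comparison. Ccnd1, cyclin D1, was at 288, 159 and 273 CPM in macrophages and 2.71, 6.06 and 3.16 CPM in ILC2 (log2 fold change 5.66 ± 0.32, edgeR adjusted p = 3.58e-08). Ccnd2, cyclin D2, was at 266, 243 and 190 CPM in macrophages and 873, 624 and 788 CPM in ILC2 (-1.90 ± 0.17, edgeR adjusted p = 2.35e-06). Neither gene overlapped between the classes. Ccne2 (1.83) and Cdk6 (0.86) were also higher in macrophages, and Myc (-2.80) and Ccnd3 (-1.58) lower.

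Of 11 cycle inhibitors tested, 7 were lower in macrophages than in ILC2, led by Btg1 (log2 fold change -1.87), Cdkn2d (-1.71), Btg2 (-1.55) and Cdkn1b (-1.43), and Cdkn1a was higher (0.76). Of 19 chromatin and tubulin genes tested, Ckap2l (2.64), Racgap1 (1.28), Cks2 (1.01) and Tuba1b (0.98) were higher, and Tubb4b (-1.48), Hmgb2 (-1.19), Smc4 (-0.52) and Ran (-0.48) were lower. Pola1 (1.42), Cdc6 (1.29) and Chaf1b (0.88) were higher among 15 genes of licensing and DNA synthesis, and Dut (-1.67) and Atad2 (-0.53) were lower. E2f1 was higher (1.36) and E2f4 lower (-0.94) among 7 transcription factors. These lists thus held genes of both directions.

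Against monocytes, 3 of 28 members tested were higher in macrophages and 0 were lower, against 8.34% of 8182 genes higher and 6.45% lower, 14.8% called in all. At an unadjusted p under 0.05, 7 were higher and 0 lower, beside 2174 of 8182 genes in either direction, a similar share. DESeq2 called 1 higher and 0 lower, beside 407 and 425 of 8182 genes. The 10 members that did not pass the filter were Ccna2, Ccnb1, Cdc20, Kif20a, Aurka, Bub1, Bub1b, Plk1, Tk1 and Gins2. Stmn1 was at 91.8, 128 and 181 CPM in macrophages and 7.38, 12.2 and 181 CPM in monocytes (log2 fold change 1.48 ± 0.47, edgeR adjusted p = 0.0482). The groups overlapped through library 3, where 1 monocyte held most G2/M UMIs.

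Ube2c was at 0, 3.05 and 7.23 CPM in monocytes, from 2 UMIs (edgeR adjusted p = 0.0386). Tpx2, which activates Aurora kinase A, had 172 UMIs in macrophages and 0 in monocytes (edgeR adjusted p = 0.0482), a level at least 2.51-fold higher in macrophages when 3 counts are allowed over all monocytes. Rrm2 had the lowest fold change (-0.60 ± 0.96, edgeR adjusted p = 0.754), with 9 UMIs in monocytes, all of library 3. Leaving out a library gave 0 to 2 members higher, 0 without library 2, beside 3.01% to 6.82% of all genes higher. None of these calls is thus firm with 47 monocytes.

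Of the other lists, Ccnd1 (log2 fold change 3.21 ± 0.40) and Cdk6 (2.75) were higher in macrophages than in monocytes, and Ccnd3 (-1.17), E2f2 (-2.47), Cks2 (-1.24), Cdkn2d (-1.15), Btg1 (-1.15) and H2afz (-0.70) were lower. Ccnd1 was thus higher in macrophages than in ILC2 and monocytes and lower than in cDC2.

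Within macrophages, cells were split by the summed UMIs of Lyve1, Folr2 and Timd4, genes of long-lived resident macrophages in many tissues. Cells with at least 4 such UMIs per 10000 were called Lyve1-positive (74, 526 and 383 cells) and those with at most 1 Lyve1-negative (104, 378 and 285 cells). Of the 38 members, 9 were higher in Lyve1-negative macrophages and 0 were lower, against 11.9% of 10207 genes higher and 11.2% lower, 23.1% called in all. At an unadjusted p under 0.05, 13 were higher and 0 lower, beside 3545 of 10207 genes in either direction, a similar share. DESeq2 called 2 higher and 0 lower, beside 611 and 540 of 10207 genes, so the share of members higher was not above that of all genes. Without the library block 0 of 37 members were called in either direction, beside 299 of 9738 genes higher and 357 lower. That fit had 10 members higher and 0 lower at an unadjusted p under 0.05, beside 1930 of 9738 genes in either direction.

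Pclaf had the lowest adjusted p of the 9. It was at 15.7, 42.3 and 46.6 CPM in Lyve1-negative and 6.62, 13.5 and 19.0 CPM in Lyve1-positive macrophages of libraries 1, 2 and 3 (log2 fold change 1.62 ± 0.20, edgeR adjusted p = 0.000118). It was higher in each library, and without the block edgeR's adjusted p was 0.0632. Rrm2, a subunit of ribonucleotide reductase (1.15 ± 0.33), and Mcm7 (0.66 ± 0.21) were also higher in each library.

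The other 6 called members were higher in libraries 2 and 3 and lower in library 1. Birc5 was at 7.33, 22.9 and 43.7 CPM in Lyve1-negative and 19.9, 9.98 and 3.05 CPM in Lyve1-positive macrophages (log2 fold change 2.02 ± 0.54, edgeR adjusted p = 0.0179). Top2a was at 37.7, 73.1 and 119 CPM against 57.3, 45.7 and 18.0 CPM (1.43 ± 0.39, edgeR adjusted p = 0.0206), and Mki67 at 70.1, 100 and 104 CPM against 104, 52.5 and 25.8 CPM (1.15 ± 0.32, edgeR adjusted p = 0.0213). Tk1, thymidine kinase (1.80 ± 0.38), Nusap1 (1.40 ± 0.46) and Stmn1 (1.15 ± 0.24) had the same pattern. Cenpa had the lowest fold change (-0.23 ± 0.25, edgeR adjusted p = 0.556). Without library 3, 2 of 33 members tested were higher, beside 7.22% of 9080 genes, so their share was not above that of all genes. Without library 1, 14 of 36 were higher, beside 14.2% of 9904 genes. Without library 2, 8 of 37 were higher, beside 7.25% of 9189 genes.

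**Figure D5:**
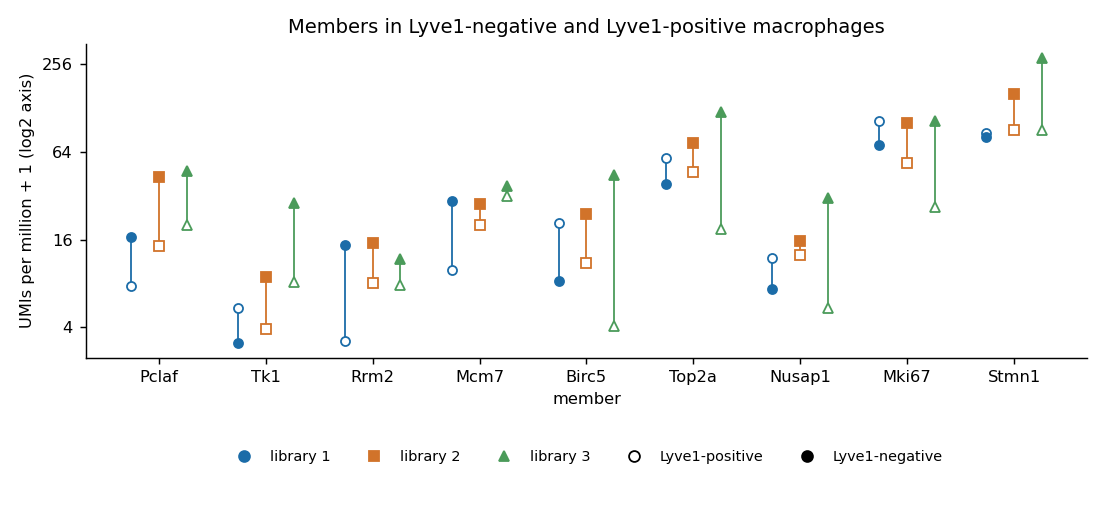
CPM plus 1 (vertical log2 axis) of the 9 called members in Lyve1-negative (filled) and Lyve1-positive (open) macrophages, joined within each library. Pclaf, Rrm2 and Mcm7 are higher in Lyve1-negative macrophages in all 3 libraries, whereas the other 6 are lower there in library 1.

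The share of cells with at least 3 members went the same way by library. It was 1.92%, 4.50% and 7.02% in Lyve1-negative macrophages and 4.05%, 3.42% and 2.35% in Lyve1-positive macrophages of libraries 1, 2 and 3, so the subset with the higher share changed from library 1 to the others. These shares rested on 2 of 104, 17 of 378 and 20 of 285 Lyve1-negative cells and on 3 of 74, 18 of 526 and 9 of 383 Lyve1-positive cells. In library 1 the exact intervals overlapped (0.234% to 6.77% against 0.844% to 11.4%), and 3 cells held 59.7% of all its macrophage G2/M UMIs. G2/M UMIs per 10000 were 3.03, 4.13 and 6.85 in Lyve1-negative and 7.21, 3.22 and 1.53 in Lyve1-positive macrophages. S-phase UMIs varied less, at 3.64, 3.90 and 4.47 against 4.50, 3.53 and 3.79. The 136 macrophages between the cuts had shares of 9.52%, 10.0% and 10.9% (2 of 21, 6 of 60 and 6 of 55 cells), above both subsets in each library, with a median depth of 9072.5 UMIs before thinning against 7364 and 6228 in the Lyve1-negative and Lyve1-positive subsets. Under 2500 UMIs a single UMI of the 3 splitting genes already makes a cell Lyve1-positive, so 0 of these 136 cells were that shallow, against 272 of 983 Lyve1-positive and 234 of 767 Lyve1-negative cells. Among cells of at least 2500 UMIs, a choice made after seeing the data, the shares were 2.25%, 6.40% and 7.88% in Lyve1-negative and 4.84%, 2.80% and 2.74% in Lyve1-positive cells, and the exact intervals of the cells between overlapped those of both subsets in each library.

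Of 20 chromatin and tubulin genes, 12 were higher in Lyve1-negative macrophages and 0 were lower, led by Spc24 (log2 fold change 2.01), Cenpm (1.73), Knl1 (1.52) and Cks2 (1.35). Ccnd2 was at 356, 347 and 255 CPM in Lyve1-negative and 110, 128 and 131 CPM in Lyve1-positive macrophages (1.48 ± 0.15, edgeR adjusted p = 3.21e-05), without overlap. Cdk6 (1.22) was higher as well. Foxm1 (1.42) and E2f2 (1.95), factors that drive cycle genes, were higher, as were the inhibitors Btg1 (1.23), Cdkn1b (0.64), Cdkn1a (0.51) and Btg2 (0.47). Of 17 licensing and synthesis genes tested, Dut (1.00), Gmnn (0.88) and Asf1b (0.88) were higher and Chaf1b (-0.85) was lower. Except for Ccnd2, these values are fits over the libraries together, and the direction within each library is not given here.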

How the data were processed

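The authors deposited raw UMI counts per gene and barcode for 3 libraries of sorted CD45+ cells, from a Chromium kit that counts transcripts by their 3′ ends, per the labels' protocols. The submitters' processing notes name Cell Ranger 3.1 and mm10. The matrix of library 1 was written by version 3.0.0 and those of libraries 2 and 3 by version 3.1.0, per the file headers. The handling of reads that fit several genes is not given in the sources used here, so genes with near-identical copies, such as Hmgb1 and H2afz, are uncertain.

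Libraries 1, 2 and 3 held 881, 2839 and 2015 barcodes with 6777422, 13336484 and 11017170 UMIs. Each kept cell was scored per class as the mean, over markers, of the marker's UMIs per 10000 relative to the 75th percentile of positive cells, with a maximum of 1 per marker. The highest class needed at least 3 markers and a score 1.25 times the next. The scoring limits were chosen after the data were seen. This left 218 cells with mixed and 210 with too few markers. Doublets were not removed, and removal of the highest scrublet scores (in scanpy 1.11.5) was an alternative. Members and lists were chosen with earlier results of these data known.

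Profiles of at least 20 cells were fitted with edgeR 4.0.16 (filterByExpr, TMM, glmQLFTest, two-sided). Monocytes were fitted at 10 cells, which was needed to have more than 1 library. SEs are of log2 fold changes, and CPM is relative to all UMIs of the profile. The library was a block because both classes came from the same library. The macrophage against cDC2 fit was tested on simulated data, and the other comparisons were not. Alternatives were DESeq2 1.42.0, no filter, no block, each library left out, doublets removed, a stricter gate of 4 markers, at least 2000 UMIs, at most 10% mitochondrial UMIs, profiles thinned to 1000 UMIs, and other depths, seeds and minimums for shares. Named genes were every called member up to 12 per comparison, the highest and lowest member, 9 members fixed by name, and up to 4 called genes per direction in each of 5 other cycle lists. A called gene of these lists is not reported here. Other members are named where they show a contrast, chosen after their values were seen. Intervals are exact 95% limits, and a count of 0 allows up to 3 counts.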

Additional observations from a re-analysis of the deposited data

Results flagged for a closer look

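Cells left out of the class comparisons also held members. Of 218 cells with mixed markers, 7 held at least 3 members at 1000 UMIs (3.21%, exact 95% interval 1.30% to 6.50%). The lower end of that interval lies below the 1.38% that a count of 0 would allow. Of 210 cells with too few markers, 11 did (5.24%, 2.64% to 9.18%), where a count of 0 would allow 1.43%, and these 11 cells had a median of 1989 UMIs. Of 1165 barcodes over the mitochondrial limit, 3 did (0.258%), no more than the limit of 3 counts.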

How the results depend on the processing

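With the replicate block in place the library pairs the classes. With no replicate block the genes called fell to 2244 for macrophages against cDC2, 637 for cDC1 against cDC2 and 656 for the Lyve1 subsets. In what follows, brackets after a count of members give the genes called the same way, of all tested. The members higher without the block were 3 of 30 against ILC2 (2257 of 8873), 1 of 24 against monocytes (547 of 7625) and 0 of 37 in Lyve1-negative macrophages (299 of 9738). By DESeq2, 291 genes were called for cDC1 against cDC2 and 1151 for the Lyve1 subsets. DESeq2 called 3 of 33 members higher and 0 lower against ILC2 (2102 and 1772 of 9363), and 1 of 28 higher against monocytes (407 of 8182). It called 1 of 30 lower in cDC1 (181 of 6961) and 2 of 38 higher in Lyve1-negative macrophages (611 of 10207). With no filter on low counts all 38 members were tested. Of these, 18 were higher against ILC2 (3483 of 17300) and 5 higher against monocytes (871 of 16793). In cDC1 7 were lower (824 of 13834), and in Lyve1-negative macrophages 16 were higher (1368 of 16555). With profiles thinned to 1000 UMIs per cell, where 1 to 8 members could be tested, 2002 genes were called for macrophages against ILC2, 968 against cDC2, 275 against monocytes, 186 for cDC1 against cDC2 and 561 for the Lyve1 subsets. Of the members tested then, 2 of 4 were higher and 0 lower against ILC2 (1101 and 901 of 3685). Against cDC2 3 of 6 were lower (470 of 3077), and against monocytes 0 of 4 were called (275 of 2398). In cDC1 0 of 1 was called (186 of 1220), and in Lyve1-negative macrophages 3 of 8 were higher (302 of 5253). Without the highest doublet scores, and at 10% mitochondrial UMIs, 1 of 28 members was higher against monocytes (645 of 8160 and 651 of 8149).

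Leaving out each library in turn gave 3974 to 5038 genes against ILC2, 2831 to 3585 against cDC2, 452 to 1199 against monocytes and 1262 to 2630 for the Lyve1 subsets. Members higher ranged over 3 to 25 (lower 0 to 2) against ILC2, 0 to 1 (lower 18 to 23) against cDC2, 0 to 2 against monocytes and 2 to 14 for Lyve1-negative macrophages. The share of all genes higher ranged over 24.9% to 27.9% (lower 19.4% to 22.2%) against ILC2 and 16.5% to 17.1% (lower 14.3% to 17.4%) against cDC2. It was 3.01% to 6.82% against monocytes and 7.22% to 14.2% for Lyve1-negative macrophages. cDC1 against cDC2 could not be fitted this way, with 1 library left, nor macrophages against monocytes under the stricter gate. The mean shares ranged over 3.89% to 4.55% in macrophages, 1.56% to 2.35% in ILC2, 8.39% to 12.2% in cDC2, 12.7% to 13.8% in cDC1 and 0% to 2.17% in monocytes. Summed S UMIs per 10000, without thinning, ranged over 3.96 to 4.39 in macrophages, 2.24 to 3.94 in ILC2, 3.06 to 4.36 in cDC2, 4.80 to 7.88 in cDC1 and 2.04 to 4.47 in monocytes. G2/M UMIs ranged over 3.81 to 4.14, 0.948 to 3.39, 8.82 to 9.71, 3.99 to 4.88 and 0.724 to 4.23 in the same order.

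At 2000 UMIs the mean shares were 9.05% in macrophages, 3.14% in ILC2, 14.4% in cDC2, 15.8% in cDC1 and 5.56% in monocytes. Counting at least 2 members gave 10.5%, 4.30%, 14.6%, 16.4% and 9.61%. At least 5 members gave 2.39% in macrophages, 0.819% in ILC2 and 3.23% in cDC1, and at least 2 G2/M members gave 3.24% in macrophages and 6.46% in cDC1. Without Pcna, Stmn1, Cenpa and Mcm3, an alternative chosen after seeing the data, as were those on the sums, the share was 3.07% in macrophages and 10.1% in cDC1. The cDC1 share was also 6.36% with another thinning seed and 10.9% under the stricter gate. For these moved values the cause was not tested, beyond the fewer members tested in thinned profiles.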
